A study of Homo sapiens with 18 samples.

Results

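The 7 genes described here encode ligands that a stressed or senescent cell can show to immune cells. MICA, MICB, ULBP1, ULBP2 and ULBP3 encode ligands of NKG2D, an activating receptor of natural killer (NK) cells and of cytotoxic T cells. CD274 and PDCD1LG2 encode PD-L1 and PD-L2, the ligands of the inhibitory receptor PD-1. They were taken by symbol from the table of raw counts, where all 7 were found among 60668 genes, and all 7 passed the filter on low counts, as did 18151 genes in all.

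NKG2D ligands are distant relatives of MHC class I molecules that healthy cells hold at low levels and that DNA damage, heat shock and viral infection can raise. NKG2D on an NK cell adds its signal to those of other activating and inhibitory receptors, and the balance sets whether the target cell is killed. PD-L1 and PD-L2 act in the opposite direction by restraining T cells and other PD-1-bearing cells, and interferon-gamma is the best known inducer of PD-L1. NK cells are among the immune cells known to clear senescent cells, and PD-1 ligands have been linked to their persistence.

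IMR90 cells, a line of primary human lung fibroblasts with a wild type genotype, were sequenced as poly(A) RNA in 6 groups of 3 libraries. Proliferating cells and cells made senescent by ionizing radiation (IR) each received the solvent DMSO, RG7388 or HDM201, which gives the groups Prolif_DMSO, Prolif_RG7388, Prolif_HDM201, IR_DMSO, IR_RG7388 and IR_HDM201. RG7388 (idasanutlin) and HDM201 (siremadlin) both block MDM2, a ubiquitin ligase. Irradiated cells received a compound or DMSO from day 4 after IR until RNA was taken on day 11, a treatment of 7 days. For proliferating cells the length of treatment is not given in the sources read. RG7388 and HDM201 differed in dose, and for that reason their values stand side by side with no test between them. All cells came from a single line, and the labels do not say whether the 3 libraries of a group came from separate irradiations or cultures, so the p-values measure the spread between these libraries, which may be technical. In bulk RNA, fewer cells with a transcript and less of it per cell cannot be told apart, and surface protein was not measured in these files.

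Levels within a gene are given as CPM, read counts scaled to library size with TMM factors (trimmed mean of M values), with the SD over n = 3 libraries. Each change is a log2 fold change ± its standard error, from a quasi-likelihood fit with edgeR to all 18 libraries, with p-values adjusted over the 18151 genes, and a gene was called at an adjusted p under 0.05. Libraries held 21609198 to 66647700 counts. All 10 fibroblast markers passed the filter, and their summed level was 44381 to 50110.5 CPM in Prolif_DMSO, 17446 to 25625 CPM in IR_DMSO, 24437 to 26455 CPM in IR_RG7388 and 22528 to 23162 CPM in IR_HDM201. KLRK1, which encodes NKG2D itself, was at 0 in all libraries of 5 groups and at a mean of 0.00726 CPM in Prolif_HDM201. PDCD1, which encodes PD-1, was at 0 in 5 groups and at a mean of 0.0102 CPM in IR_RG7388. HCST, the signalling adaptor of NKG2D, was the only tested gene of the members' receptors, at means of 0.0616 to 0.360 CPM, and its rise with irradiation (2.31 ± 0.83, adjusted p = 0.0242) was not called without IR_DMSO replicate 1 but was when Prolif_HDM201 replicate 3 was left out as well. The summed level of the 8 NK and cytotoxic lymphocyte markers stayed between 0.0441 and 1.38 CPM, and that of the 4 endothelial markers between 0.606 and 2.98 CPM. The 6 leukocyte markers summed to 0.957 to 1.76 CPM in proliferating libraries, 3.15 to 3.91 CPM in IR_DMSO and 2.13 to 2.80 CPM in irradiated cells given a compound. The 5 epithelial markers summed to 24.9 to 140 CPM, of which all but 0.439 to 1.61 CPM was KRT19, a keratin gene that was higher after irradiation and with both compounds in both states. The part of these markers in the results below was not tested.

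The labelled states were visible in MKI67, a marker gene of dividing cells, which was at 506 ± 51.9 CPM in Prolif_DMSO and at 28.9 ± 9.57 CPM in IR_DMSO. LMNB1, a lamin gene lost in senescence, was at 145 ± 4.08 CPM in Prolif_DMSO and at 6.83 ± 1.54 CPM in IR_DMSO, and CXCL8, an inflammatory chemokine gene, was at 8.34 ± 0.542 CPM in Prolif_DMSO, 635 ± 68.8 CPM in IR_DMSO, 8.93 ± 1.11 CPM in IR_RG7388 and 11.7 ± 1.42 CPM in IR_HDM201. CDKN1A, which encodes a brake on the cell cycle, was at 231 ± 13.2 CPM in Prolif_DMSO, 748 ± 43.0 CPM in Prolif_RG7388 and 627 ± 104 CPM in Prolif_HDM201. In irradiated cells it was at 1818 ± 95.1 CPM in IR_DMSO, 2110 ± 47.3 CPM in IR_RG7388 and 1763 ± 96.0 CPM in IR_HDM201, with no call for either compound (adjusted p = 0.158 and 0.820), and its change there minus that in proliferating cells was -1.48 ± 0.15 with each (adjusted p = 4.26e-07 and 4.63e-07). MDM2 itself was not called with either compound in irradiated cells (adjusted p = 0.854 and 0.835). A pair of libraries stood apart. IR_DMSO replicate 1 held 0.668% of its counts in mitochondrial genes, against 2.38% to 3.47% in the other 17 libraries, and Prolif_HDM201 replicate 3 had the lowest mean correlation with its group, at 0.977. That value was close to the next lowest, 0.979 in IR_DMSO replicate 1 and 0.980 in IR_HDM201 replicate 2, and the highest was 0.9915. Prolif_HDM201 replicate 3 thus stood apart less clearly. Leaving out IR_DMSO replicate 1, or both libraries, changed some calls, which are given beside the results.

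The genes lie in 3 clusters (hg38, GENCODE release 44). MICA (chr6:31399784-31415315, plus strand) and MICB (chr6:31494881-31511124, plus strand) are neighbours within 111.3 kb of the MHC region on chromosome 6. ULBP2 (chr6:149942014-149949235, plus strand), ULBP1 (chr6:149963943-149973715, plus strand) and ULBP3 (chr6:150061053-150069121, minus strand) lie within 127.1 kb on the long arm of the same chromosome. CD274 (chr9:5450503-5470566, plus strand) and PDCD1LG2 (chr9:5510531-5571282, plus strand) lie within 120.8 kb on chromosome 9. All 7 are protein-coding, with 5 to 7 exons in the canonical transcript.

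Counts of close copies can be split or lost between them, so the 50-base stretches of each gene's transcripts were searched for in the transcripts of all other genes. Of the stretches of ULBP2, 32.6% occurred in another gene, most of them in RAET1L (29.7%). The share was 11.1% for ULBP3, 8.13% for ULBP1, 2.86% for MICB and 1.86% for MICA, and no stretch of CD274 or PDCD1LG2 was found elsewhere. The level of ULBP2 is therefore the least certain of the 7, and RAET1L was listed at a mean of 0 to 0.0693 CPM in the 6 groups. Annotated genes on either strand overlapped at most 2.44% of the exon bases of a member, and the strand setting of the counting is not known.

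The promoters show what the paralogs share. Windows of 300 bases, 250 before and 50 after the RefSeq start (GRCh38.p14), were found for 6 of the 7 genes, all but PDCD1LG2. MICA and MICB are shown because their windows are closely alike. After irradiation MICA rose and MICB was not called in the main fit, though it was called higher under 6 of 17 alternatives. A difference between the changes of MICA and MICB was not tested. Aligned end to end, they were identical at 246 of 316 columns (77.8%), against 41.3% to 48.4% for 13 of the other 14 pairs of windows and 161 of 322 columns for ULBP2 with ULBP3. The MICA window is chr6:31403345-31403644 and the MICB window is chr6:31497895-31498194, both on the plus strand and both inside the longer GENCODE gene. Capitals mark the match to the heat shock element (GAANNTTC), the letters read by the heat shock factor HSF1.
MICA: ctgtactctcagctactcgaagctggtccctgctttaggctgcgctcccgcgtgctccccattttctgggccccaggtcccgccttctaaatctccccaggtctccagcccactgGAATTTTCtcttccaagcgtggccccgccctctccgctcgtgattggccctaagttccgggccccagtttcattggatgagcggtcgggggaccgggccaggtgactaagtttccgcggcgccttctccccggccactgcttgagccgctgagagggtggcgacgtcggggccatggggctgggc
MICB: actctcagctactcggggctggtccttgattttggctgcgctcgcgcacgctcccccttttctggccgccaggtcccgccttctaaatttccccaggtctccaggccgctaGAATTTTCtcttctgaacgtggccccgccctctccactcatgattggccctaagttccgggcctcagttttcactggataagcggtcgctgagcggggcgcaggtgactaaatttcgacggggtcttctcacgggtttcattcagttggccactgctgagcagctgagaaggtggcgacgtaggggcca
The same 8 letters were found 135 bases before the MICA start and 139 bases before the MICB start, in each overlapping a match to the IRF core (AANNGAAA), the letters read by interferon regulatory factors. A heat shock element stood in 6.8% and an IRF core in 22.8% of all 35116 promoter windows. MICA and MICB also held a GC box (GGGCGG, in 45.0% of all windows) and a CCAAT box (CCAAT, in 34.6%), with a further CCAAT box in MICA only.

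Among the members, ULBP2 is shown as the NKG2D ligand gene with the largest fold change after irradiation, and CD274 as the gene with the largest fall. The ULBP2 window is chr6:149941764-149942063 and the CD274 window chr9:5450292-5450591, both on the plus strand. Capitals mark the AP-1 match (TGANTCA) in ULBP2 and the IRF core matches in CD274.
ULBP2: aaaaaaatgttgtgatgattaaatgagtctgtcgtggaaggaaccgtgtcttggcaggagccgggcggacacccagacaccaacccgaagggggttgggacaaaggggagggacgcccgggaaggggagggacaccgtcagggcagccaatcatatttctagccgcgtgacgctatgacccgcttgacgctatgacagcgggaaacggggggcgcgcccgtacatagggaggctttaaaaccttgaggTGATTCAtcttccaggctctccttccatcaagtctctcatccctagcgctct
CD274: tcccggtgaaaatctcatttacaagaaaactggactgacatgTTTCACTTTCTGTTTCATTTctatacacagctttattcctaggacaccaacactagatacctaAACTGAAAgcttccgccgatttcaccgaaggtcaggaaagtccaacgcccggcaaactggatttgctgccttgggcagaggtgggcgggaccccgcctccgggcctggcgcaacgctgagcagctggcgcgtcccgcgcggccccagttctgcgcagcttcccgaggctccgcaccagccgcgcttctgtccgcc
The AP-1 match of ULBP2 spans the start site, ULBP3 held an AP-1 match 6 bases before its start, and 7.7% of all windows held such a match. CD274 held 4 IRF core matches, starting 208, 202, 196 and 145 bases before the start, the first 3 overlapping each other. ULBP1, ULBP2 and ULBP3 held no IRF core and no heat shock element in their windows. No NF-kB match (in 5.9% of all windows) was found in the 6 windows, and a TATA box (TATAAA, in 11.5%) was found only in ULBP1, after its start. Both strands were searched, and a match is a description of the letters alone.

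Compared per length, on the FPKM scale as deposited (fragments scaled to transcript length and library size), MICA was the most abundant of the 7 transcripts in all 6 groups. In Prolif_DMSO the level of MICA was 29.7 ± 0.819 FPKM, followed by PDCD1LG2 at 13.2 ± 0.638 and CD274 at 10.6 ± 0.785. MICB at 5.02 ± 0.308 FPKM and ULBP2 at 4.98 ± 0.0946 could not be ordered beyond their spread, and below them came ULBP3 at 3.78 ± 0.457 and ULBP1 at 2.36 ± 0.0755. In IR_RG7388 and IR_HDM201 the order began with MICA (60.1 ± 0.877 and 62.2 ± 4.32 FPKM), PDCD1LG2 (34.8 ± 0.810 and 37.9 ± 1.56) and ULBP2 (13.2 ± 0.572 and 14.9 ± 1.97). CD274 there stood at 5.61 ± 0.128 and 5.52 ± 0.857 FPKM, beside MICB at 5.12 ± 0.0938 and 5.55 ± 0.595 FPKM and ULBP1 at 5.18 ± 0.251 and 5.26 ± 0.574 FPKM.

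**Figure D1:**
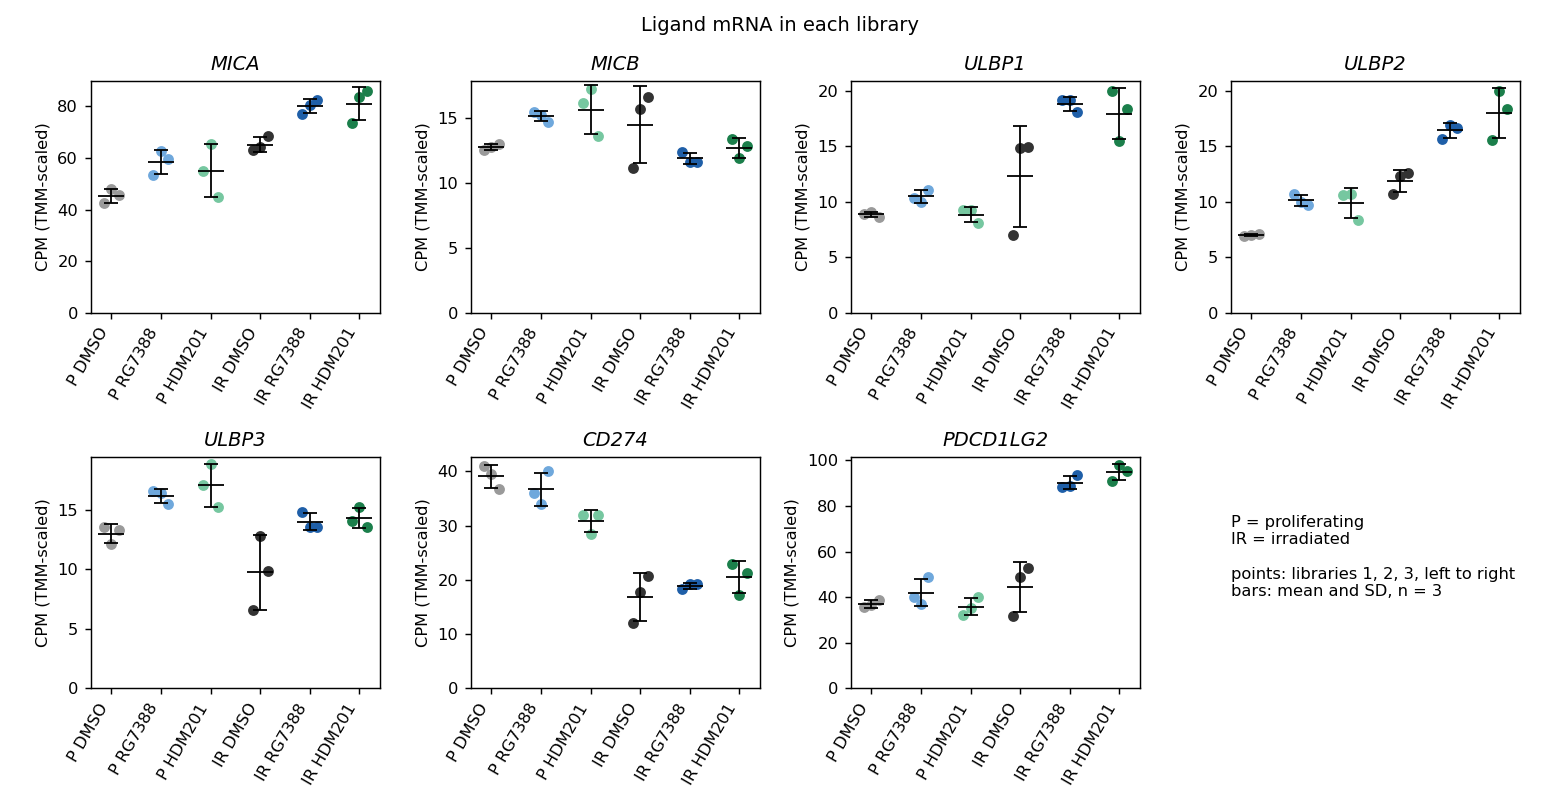
TMM-scaled CPM (vertical axis, from 0) of the 7 ligand genes in the 6 groups, with 1 point per library and bars for the mean and SD of 3 libraries. The 6 libraries of irradiated cells given a compound lay between 88.4 and 97.9 CPM for PDCD1LG2, above the other 12 libraries, and the 9 irradiated libraries lay below the 9 proliferating libraries for CD274.

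The first comparison asks what irradiation did to the ligand genes in cells given DMSO. Of the 7 genes, 3 rose (MICA, ULBP1 and ULBP2) and 2 fell (ULBP3 and CD274), beside 26.3% of all genes tested that rose and 25.3% that fell. Their median change was 0.26 on the log2 scale, against 0.05 over all genes. With library totals in place of TMM, the median of all genes moved by 0.29 and 71.5% of the calls were rises, against 51.0% with TMM. With library totals, on the FPKM scales or without IR_DMSO replicate 1, MICB and PDCD1LG2 were also called and ULBP3 was not, so that 5 of the 7 rose and 1 fell.

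ULBP2, whose product is held to the membrane by a lipid anchor, was at 6.95, 6.98 and 7.11 CPM in Prolif_DMSO and at 10.7, 12.3 and 12.6 CPM in IR_DMSO. The libraries did not overlap, and the gene rose 1.69-fold (log2 change 0.76 ± 0.13, adjusted p = 3.03e-05). MICA, which encodes a transmembrane ligand, was at 42.6, 47.9 and 45.7 CPM in Prolif_DMSO and at 63.0, 64.2 and 68.4 CPM in IR_DMSO. It rose 1.44-fold (0.52 ± 0.11, adjusted p = 0.00054), again with no overlap between libraries. Such a lack of overlap was common, with 31.8% of all genes wholly above Prolif_DMSO in IR_DMSO and 29.4% wholly below. ULBP1 was at 8.86, 9.05 and 8.66 CPM in Prolif_DMSO and at 7.04, 14.9 and 14.9 CPM in IR_DMSO. The low value belonged to IR_DMSO replicate 1, and the call (0.47 ± 0.19, adjusted p = 0.0421) ended when any of the other 5 libraries was left out, with adjusted p of 0.0791 to 0.257, while without IR_DMSO replicate 1 the change was 0.73 (adjusted p = 3.49e-05).

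MICB, the close paralog of MICA, was at 12.5, 12.8 and 13.0 CPM in Prolif_DMSO and at 11.2, 15.7 and 16.6 CPM in IR_DMSO. The groups overlapped and the change of 0.18 ± 0.13 was not called (adjusted p = 0.256), but it was called without IR_DMSO replicate 1 (0.32, adjusted p = 0.0329), with library totals (0.47, adjusted p = 0.00242) and on the FPKM scales (0.36 to 0.41, adjusted p of 0.00994 to 0.0122). ULBP3 was at 13.6, 12.1 and 13.3 CPM in Prolif_DMSO and at 6.55, 12.8 and 9.89 CPM in IR_DMSO, and its fall (-0.42 ± 0.16, adjusted p = 0.0327) was not called with library totals (-0.14, adjusted p = 0.474) or on the FPKM scales (adjusted p of 0.340 to 0.359). It was also not called without IR_DMSO replicate 1 (-0.22, adjusted p = 0.177) or 3 (adjusted p = 0.0514) or without Prolif_DMSO replicate 1 (adjusted p = 0.0891) or 3 (adjusted p = 0.0795). IR_DMSO replicate 1 was the lowest library of its group for all 7 genes.

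The PD-1 ligands parted after irradiation. CD274 was at 41.0, 39.5 and 36.7 CPM in Prolif_DMSO and at 12.1, 17.7 and 20.7 CPM in IR_DMSO. The libraries were far from overlap and the gene fell by 1.22 on the log2 scale, a 2.33-fold difference (SE 0.15, adjusted p = 2.79e-07), which held under all 17 alternatives. PDCD1LG2 was at 35.6, 36.7 and 38.8 CPM in Prolif_DMSO and at 31.9, 48.9 and 52.6 CPM in IR_DMSO. The change of 0.26 ± 0.14 was not called (adjusted p = 0.124), and without IR_DMSO replicate 1, whose value was below all of Prolif_DMSO, it was 0.43 and called (adjusted p = 0.00311). It was also called with library totals (0.55, adjusted p = 0.00435) and on the FPKM scales (0.47 to 0.50, adjusted p of 0.0128 to 0.0149).

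**Figure D2:**
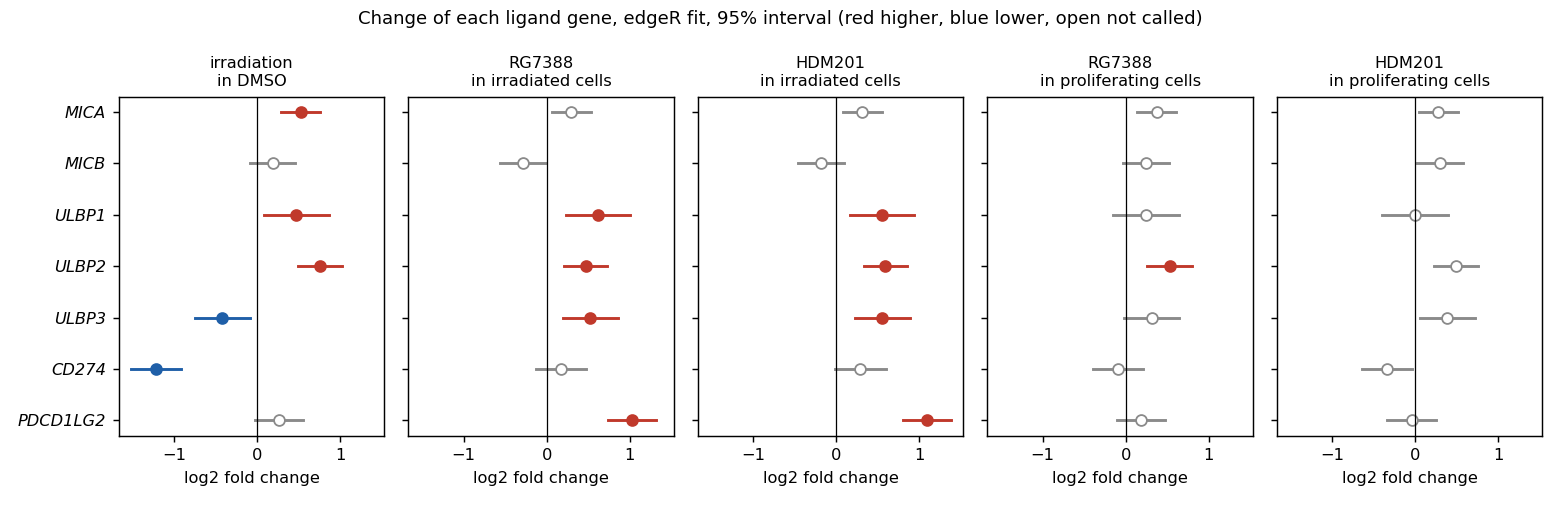
Log2 fold change (horizontal axis) of each ligand gene with its 95% interval in 5 comparisons from the edgeR fit. Filled red points were called higher, filled blue points called lower and open points not called. PDCD1LG2 rose with both compounds in irradiated cells, while its intervals in proliferating cells included 0.

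The second comparison asks what blocking MDM2 did to the ligand genes in cells that had already been irradiated. With RG7388, 4 of the 7 genes rose and 0 fell, beside 10.9% of all genes that rose and 11.9% that fell, and with HDM201 again 4 rose and 0 fell, beside 9.96% and 11.3%. The 4 genes were PDCD1LG2, ULBP1, ULBP2 and ULBP3 with either compound. The median change of the 7 was 0.47 with RG7388 and 0.55 with HDM201, against -0.03 and -0.02 over all genes. Both comparisons share the 3 IR_DMSO libraries. With library totals in place of TMM, 20.2% of the calls with RG7388 and 22.5% of those with HDM201 were rises, against 48.0% and 46.8% with TMM, and the calls of ULBP1 and ULBP3 then ended with both compounds (adjusted p of 0.0640 to 0.116), as did that of ULBP2 with RG7388 (adjusted p = 0.0524), while MICB was then called lower with RG7388 (-0.47, adjusted p = 0.00644). By library totals 1 gene thus rose and 1 fell with RG7388, and 2 rose and 0 fell with HDM201. On the FPKM scales the calls of ULBP1 and ULBP3 also ended with both compounds (adjusted p of 0.0525 to 0.114), and MICB was again called lower with RG7388 (-0.38 to -0.34, adjusted p of 0.0353 to 0.0419).

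PDCD1LG2 showed the largest change of the 7. Its levels were 88.4, 88.7 and 93.6 CPM in IR_RG7388 and 91.1, 97.9 and 95.5 CPM in IR_HDM201, all above the 31.9 to 52.6 CPM of IR_DMSO. Over all genes 21.7% lay wholly above IR_DMSO with RG7388 and 17.1% with HDM201. PDCD1LG2 rose 2.03-fold with RG7388 (1.02 ± 0.14, adjusted p = 8.5e-06) and 2.13-fold with HDM201 (1.09 ± 0.14, adjusted p = 4.15e-06). Under the 17 alternatives the change ran from 0.84 to 1.16 with RG7388 and from 0.91 to 1.23 with HDM201, called each time, also without IR_DMSO replicate 1.

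Among the NKG2D ligand genes, ULBP2 was at 15.7, 16.9 and 16.6 CPM in IR_RG7388 and at 15.5, 19.99 and 18.3 CPM in IR_HDM201, above the 10.7 to 12.6 CPM of IR_DMSO. It rose by 0.47 ± 0.12 with RG7388 (adjusted p = 0.0083) and by 0.59 ± 0.13 with HDM201 (adjusted p = 0.0014). Of the 3 NKG2D ligand genes that rose here, it was the only one that was called without IR_DMSO replicate 1 as well, and with HDM201 the only one called under all 17 alternatives.

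ULBP1 was at 19.1, 19.2 and 18.05 CPM in IR_RG7388 and at 19.99, 15.5 and 18.3 CPM in IR_HDM201, and rose by 0.62 ± 0.18 (adjusted p = 0.0181) and 0.55 ± 0.19 (adjusted p = 0.0360). ULBP3 was at 14.8, 13.6 and 13.6 CPM in IR_RG7388 and at 14.1, 15.2 and 13.6 CPM in IR_HDM201, and rose by 0.53 ± 0.16 (adjusted p = 0.0199) and 0.56 ± 0.16 (adjusted p = 0.0163). Neither overlapped IR_DMSO, but both calls depended on IR_DMSO replicate 1. Without that library the change of ULBP1 was 0.34 with RG7388 (adjusted p = 0.0595) and 0.28 with HDM201 (adjusted p = 0.135), and that of ULBP3 was 0.31 (adjusted p = 0.115) and 0.34 (adjusted p = 0.0867). With Prolif_HDM201 replicate 3 left out as well, the sizes were about the same and 3 of these 4 changes were called, all but ULBP1 with HDM201 (adjusted p = 0.0557). The ULBP1 call was also lost without IR_RG7388 replicate 1 (adjusted p = 0.0523) and without IR_HDM201 replicate 1 (adjusted p = 0.123) or 3 (adjusted p = 0.0821), and the ULBP3 call without IR_RG7388 replicate 1 (adjusted p = 0.0787) and IR_HDM201 replicate 2 (adjusted p = 0.0568).

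MICA was at 77.2, 80.7 and 82.4 CPM in IR_RG7388 and at 73.7, 83.7 and 85.9 CPM in IR_HDM201, with all 6 libraries above IR_DMSO. Its changes of 0.30 ± 0.11 (adjusted p = 0.0623) and 0.31 ± 0.11 (adjusted p = 0.0518) lay just outside the threshold, and without both libraries that stood apart the values of 0.28 and 0.29 were called (adjusted p = 0.0322 and 0.0257). The change with HDM201 was also called without IR_HDM201 replicate 1 (0.39, adjusted p = 0.0401). With all libraries kept, the DESeq2 Wald test called MICA with RG7388 (0.29, adjusted p = 0.0469) and with HDM201 (0.32, adjusted p = 0.0306). Among the 17 alternatives MICA was called under 3 with RG7388 and under 5 with HDM201. MICB was at 12.4, 11.6 and 11.6 CPM in IR_RG7388 and at 13.4, 11.9 and 12.8 CPM in IR_HDM201, within the 11.2 to 16.6 CPM of IR_DMSO. Its changes of -0.28 ± 0.13 (adjusted p = 0.132) and -0.18 ± 0.13 (adjusted p = 0.358) were not called, and without IR_DMSO replicate 1 that with RG7388 was -0.44 and called (adjusted p = 0.0132). Without both libraries that stood apart, that with HDM201 was called too (-0.34, adjusted p = 0.0113). The paralogs MICA and MICB thus had values of opposite sign with either compound.

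CD274 was at 18.2, 19.2 and 19.3 CPM in IR_RG7388 and at 23.0, 17.3 and 21.2 CPM in IR_HDM201, which overlapped IR_DMSO. The changes were 0.17 with RG7388 (95% interval -0.13 to 0.47, adjusted p = 0.444) and 0.29 with HDM201 (-0.01 to 0.59, adjusted p = 0.168). A change of the size seen for PDCD1LG2 lay outside both intervals, and the change with HDM201 was called when IR_DMSO replicate 3 was left out (0.46, adjusted p = 0.0358).

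The third comparison asks what the compounds did in cells that had not been irradiated. With RG7388, 1 of the 7 genes rose and 0 fell, beside 1.20% of all genes that rose and 0.342% that fell. With HDM201, 0 of the 7 were called by edgeR, beside 0.545% of all genes that rose and 0.154% that fell. The DESeq2 Wald test called 1 of the 7 with HDM201, ULBP2. At an unadjusted p under 0.05 edgeR had 4 of the 7 higher and 1 lower with HDM201. The shares over all genes are at an adjusted p under 0.05 and cannot be set beside that count. The median change of the 7 was 0.25 with RG7388 and 0.28 with HDM201, against -0.0044 and 0.0029 over all genes.

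The gene that rose was ULBP2, at 10.7, 9.97 and 9.73 CPM in Prolif_RG7388 against 6.95 to 7.11 CPM in Prolif_DMSO. The change was 0.53 ± 0.13 (adjusted p = 0.0415), and the call ended when any of the 6 libraries was left out (adjusted p of 0.111 to 0.204), with changes of 0.50 to 0.56. In Prolif_HDM201 the level of ULBP2 was 10.6, 10.7 and 8.34 CPM, all above Prolif_DMSO, with a change of 0.49 ± 0.13 that was not called (adjusted p = 0.0904). Prolif_HDM201 replicate 3 held the lowest of these values, and without it ULBP2 (0.61, adjusted p = 0.00611) and MICA (0.41, adjusted p = 0.0165) were called. Over all genes 867 were then called higher and 805 lower with HDM201, against 99 and 28 with all libraries.

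MICA was at 53.6, 62.7 and 59.7 CPM in Prolif_RG7388 and at 54.9, 65.3 and 45.0 CPM in Prolif_HDM201, with changes of 0.37 ± 0.11 (adjusted p = 0.117) and 0.28 ± 0.11 (adjusted p = 0.377). Only the last of these libraries overlapped Prolif_DMSO. Over all genes 15.2% lay wholly above Prolif_DMSO with RG7388 and 6.34% with HDM201. MICB, ULBP1 and ULBP3 had changes of 0.25, 0.24 and 0.31 with RG7388 and of 0.29, -0.0052 and 0.39 with HDM201, none called. Without both libraries that stood apart, MICA was called with RG7388 (0.37, adjusted p = 0.00861), and with HDM201 MICA (0.41, adjusted p = 0.00688), ULBP2 (0.61, adjusted p = 0.00194), MICB (0.40, adjusted p = 0.00997) and ULBP3 (0.47, adjusted p = 0.00947) were called higher and CD274 lower (-0.37, adjusted p = 0.0301). Calls over all genes were also many more in that setting. Of 18341 genes, 955 were called higher and 481 lower with RG7388, and 1589 higher and 1244 lower with HDM201. For the PD-1 ligands, CD274 was at 36.0, 34.0 and 40.0 CPM in Prolif_RG7388 (-0.09 ± 0.14, adjusted p = 0.858) and at 32.0, 28.4 and 32.0 CPM in Prolif_HDM201 (-0.34 ± 0.14, adjusted p = 0.390). PDCD1LG2 was at 40.2, 37.1 and 48.8 CPM in Prolif_RG7388 and at 32.3, 35.5 and 40.0 CPM in Prolif_HDM201, with changes of 0.18 (95% interval -0.11 to 0.48) and -0.04 (-0.34 to 0.25).

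Whether a compound acted differently in the 2 states was tested as an interaction, the log2 change in irradiated cells minus that in proliferating cells. The length of treatment of proliferating cells is not given, so cell state and length of treatment cannot be told apart in this difference. With RG7388, 1 of the 7 genes was called higher and 0 lower, beside 2.20% and 5.27% of all genes, and with HDM201 again 1 higher and 0 lower, beside 2.97% and 5.67%. The gene was PDCD1LG2 both times. Its difference was 0.84 ± 0.20 with RG7388 (adjusted p = 0.00817) and 1.14 ± 0.20 with HDM201 (adjusted p = 0.00044). The difference was called under all 23 alternatives with HDM201 and under 22 of 23 with RG7388, the exception being limma on log2(FPKM + 0.1), with 0.75 (adjusted p = 0.0528).

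The other 6 genes were not called. MICB differed by -0.53 ± 0.19 with RG7388 (adjusted p = 0.0978) and by -0.48 ± 0.19 with HDM201 (adjusted p = 0.130), and without IR_DMSO replicate 1 both were called (-0.69, adjusted p = 0.00921, and -0.63, adjusted p = 0.0162), as they were with library totals (adjusted p = 0.0148 and 0.0226). That with HDM201 was called without Prolif_HDM201 replicate 3 too (-0.58, adjusted p = 0.0313). CD274 differed by 0.63 ± 0.21 with HDM201 (adjusted p = 0.0580) and was called under 7 of 23 alternatives, among them those without IR_DMSO replicate 3 (0.81, adjusted p = 0.0123), IR_HDM201 replicate 2 (0.75, adjusted p = 0.0312) and Prolif_HDM201 replicate 3 (0.66, adjusted p = 0.0357). For ULBP2 the differences were -0.06 (95% interval -0.43 to 0.31) with RG7388 and 0.10 (-0.27 to 0.47) with HDM201, and for MICA -0.07 (-0.41 to 0.26) and 0.04 (-0.30 to 0.37), intervals that leave room for differences of moderate size in either direction.

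Set against proliferating cells given DMSO, irradiated cells given a compound had higher levels of 4 genes and a lower level of 1, with 24.6% of all genes higher and 24.6% lower for RG7388 and 25.2% higher and 25.0% lower for HDM201. The genes were the same for both compounds. ULBP2 was 2.34-fold and 2.55-fold higher in IR_RG7388 and IR_HDM201, PDCD1LG2 was 2.44-fold and 2.56-fold higher, ULBP1 was 2.12-fold and 2.03-fold higher and MICA was 1.77-fold and 1.79-fold higher, with adjusted p of 9.75e-05 or less for each. CD274 was 2.07-fold and 1.90-fold lower (adjusted p = 2.34e-06 and 1.24e-05). Each of these 10 calls held under its 17 alternatives. MICB and ULBP3 were not called (adjusted p of 0.511 to 0.998). The median change of the 7 was 0.82 and 0.84 on the log2 scale, against 0.0068 and 0.011 over all genes.

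**Figure D3:**
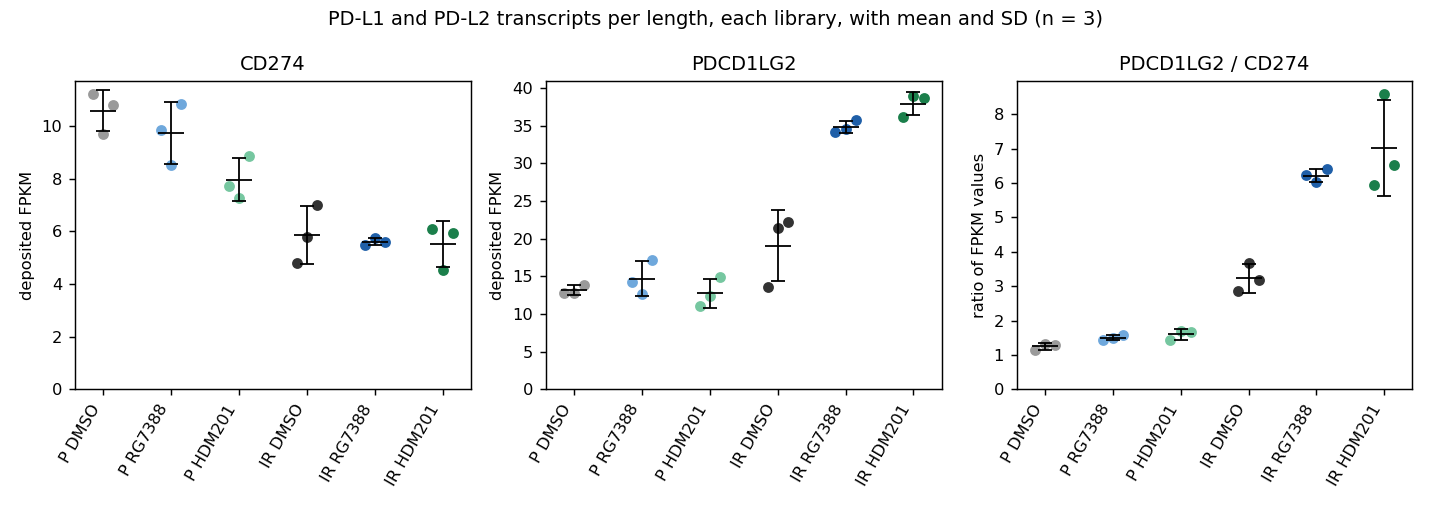
Deposited FPKM of CD274 and PDCD1LG2 and the ratio of PDCD1LG2 to CD274 (vertical axes, from 0) in each library, with bars for the mean and SD of 3 libraries. The ratio lay between 1.14 and 1.71 in the 9 proliferating libraries, between 2.85 and 3.69 in IR_DMSO and between 5.93 and 8.59 in irradiated cells given a compound.

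The ratio of the PD-1 ligand transcripts differed between groups, as did the summed level of the NKG2D ligand transcripts. The ratio of PDCD1LG2 to CD274 FPKM was 1.25 ± 0.0954 in Prolif_DMSO, 1.51 ± 0.0722 in Prolif_RG7388 and 1.603 ± 0.154 in Prolif_HDM201. It was 3.24 ± 0.420 in IR_DMSO, 6.22 ± 0.195 in IR_RG7388 and 7.02 ± 1.39 in IR_HDM201. The ranges of the last 2 groups overlapped each other and no other group. From Prolif_DMSO to IR_DMSO the level of CD274 went from 10.6 to 5.87 ± 1.12 FPKM and that of PDCD1LG2 from 13.2 to 19.1 ± 4.72 FPKM, while from IR_DMSO to the groups given a compound CD274 stayed between 5.52 and 5.87 FPKM as a group mean. On the CPM scale the CD274 means ran in the reverse order, 16.8 in IR_DMSO, 18.9 in IR_RG7388 and 20.5 in IR_HDM201. Those of PDCD1LG2 were 44.4, 90.2 and 94.8 CPM. The size of the ratio and its order between the compounds thus hold for the FPKM scale only.

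The summed FPKM of the 5 NKG2D ligand genes was 45.8 ± 0.0785 in Prolif_DMSO, 58.5 ± 2.33 in Prolif_RG7388 and 57.6 ± 6.41 in Prolif_HDM201. It was 77.1 ± 6.27 in IR_DMSO, 88.0 ± 0.533 in IR_RG7388 and 92.6 ± 5.06 in IR_HDM201. MICA made up 63.6% to 69.0% of this sum as a group mean, with SDs of 0.671 to 3.72, and was the largest part of it in every group. The deposited FPKM values are not TMM-scaled, and the highest group mean of MICA was 2.10 times its lowest on the FPKM scale and 1.79 times on the CPM scale.

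The order of the 6 groups differed between genes. For PDCD1LG2 the CPM levels of IR_HDM201 and IR_RG7388 overlapped at the top, and below them IR_DMSO and the 3 proliferating groups overlapped. For MICA the order ran from IR_HDM201 and IR_RG7388, which overlapped, through IR_DMSO to Prolif_RG7388, Prolif_HDM201 and Prolif_DMSO, where the highest library of Prolif_HDM201, at 65.3 CPM, lay above 2 of the 3 libraries of IR_DMSO. ULBP2 had the same order, and there the lowest library of IR_DMSO and the highest of Prolif_RG7388 and of Prolif_HDM201 were all at 10.7 CPM. ULBP1 was highest in IR_RG7388 and IR_HDM201, which overlapped, and IR_DMSO overlapped all 3 proliferating groups. CD274 was highest in Prolif_DMSO and Prolif_RG7388, which overlapped, then in Prolif_HDM201, and the 3 irradiated groups overlapped at the bottom. MICB and ULBP3 were highest in Prolif_HDM201 and Prolif_RG7388, which overlapped, and lowest in IR_RG7388 and IR_DMSO, respectively. For MICB the libraries of IR_DMSO overlapped both top groups, and on the FPKM scale it was highest in IR_DMSO and lowest in Prolif_DMSO. Highest and lowest group means differed 2.64-fold for PDCD1LG2, 2.56-fold for ULBP2, 2.32-fold for CD274, 2.12-fold for ULBP1, 1.75-fold for ULBP3 and 1.32-fold for MICB.

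As a description, with libraries that share their groups, the correlation of log2 CPM was 0.96 between MICA and ULBP2, 0.93 between ULBP1 and PDCD1LG2, 0.87 between ULBP2 and PDCD1LG2 and -0.73 between MICA and CD274. MICA and MICB had a correlation of -0.21, and ULBP3 had -0.03 with MICA. Among 12580 genes the closest to MICA were DUSP3 (0.97), FAM214B, ANXA7, PINK1 and DNASE1L1 (0.96), and FAM214B (0.98), DUSP3 and DNASE1L1 were also among the 5 closest to ULBP2, with PRDX6 and AK1 (0.97). The closest to ULBP1 were DAB2 (0.99), SNAP23, VAMP2, GOLGA7 and ENTPD5 (0.96). The closest to PDCD1LG2 were CAP2 (0.98), MYL12A, MYL12B, DDAH1 and FAM98A (0.97), and MYL12A and MYL12B encode light chains of nonmuscle myosin. CD274 stood closest to HNRNPK (0.97), FUBP1, ZNF827, NUP153 and WIPF1 (0.96). The likeness was weaker for ULBP3, with UBE2L3 (0.92), RRP8, PDE8A, MRPS11 and PITRM1 (0.89), and for MICB, with ZNF773 (0.85), FADS1, C19orf44, FERMT1 and TLE4 (0.80).

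The ligand genes were set beside lists of the routes that act on them. Interferon-gamma signals through the kinases JAK1 and JAK2 to the transcription factor IRF1, which drives CD274, and genes of this route fell with the compounds in irradiated cells, where CD274 was not called. Of its 11 genes, 0 rose and 6 fell with RG7388 and likewise with HDM201 in irradiated cells, beside 11.9% and 11.3% of all genes that fell. IRF1 was at 31.8 ± 3.42 CPM in IR_DMSO, 13.3 ± 0.909 CPM in IR_RG7388 and 12.4 ± 0.801 CPM in IR_HDM201 (-1.26 ± 0.13, adjusted p = 1.04e-07, and -1.36 ± 0.13, adjusted p = 5.28e-08). The median of the list was -0.68 and -0.58, against -0.03 and -0.02 over all genes. With irradiation 4 of the 11 rose, IRF1 among them (0.51 ± 0.13, adjusted p = 0.00165), and 2 fell, JAK1 with the smallest p (-0.39 ± 0.09, adjusted p = 0.000944), beside 26.3% and 25.3% of all genes, while CD274 fell.

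**Figure D4:**
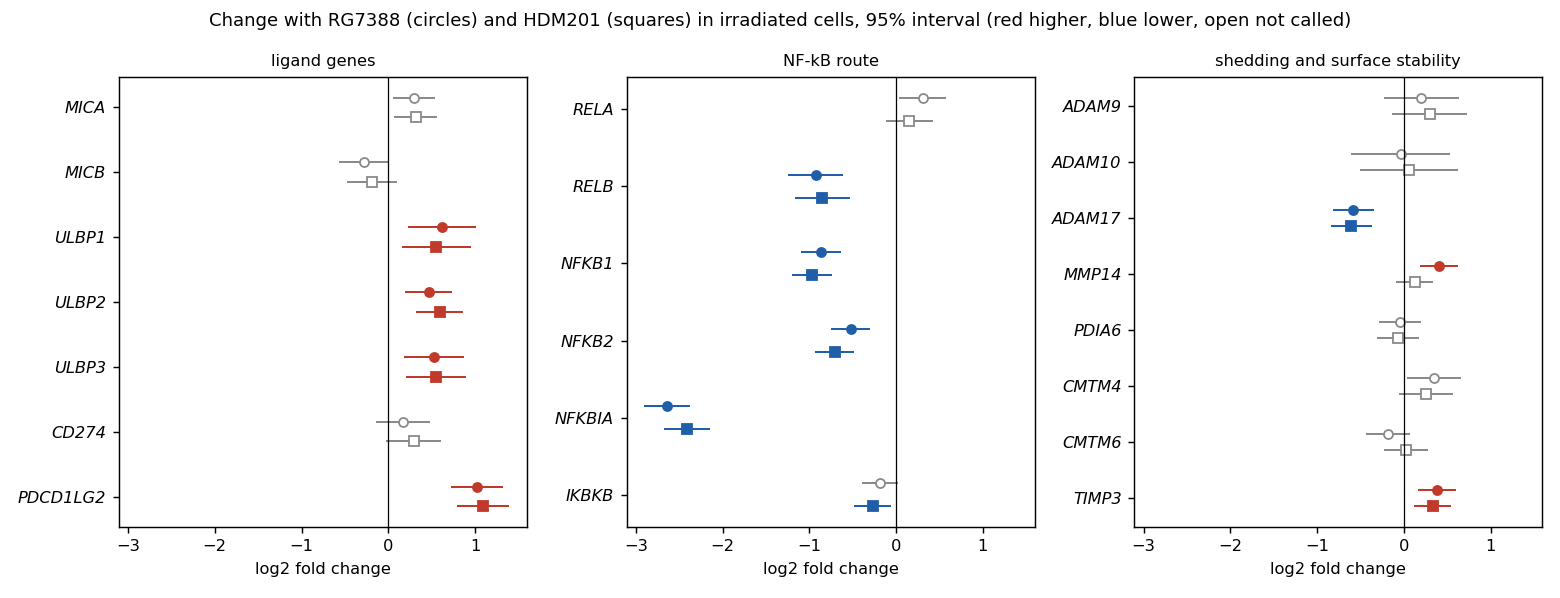
Log2 fold change (horizontal axis) with its 95% interval for RG7388 (circles) and HDM201 (squares) in irradiated cells, for the ligand genes, the NF-kB route and genes of shedding and surface stability. Red was called higher, blue called lower and open not called. The calls among the ligand genes were all rises and those in the NF-kB route were all falls.

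The NF-kB route, which also acts on CD274, showed the same direction. Of its 6 genes 0 rose and 4 fell with RG7388, and 0 rose and 5 fell with HDM201, of which IKBKB (-0.27 ± 0.10, adjusted p = 0.0485) was not called without IR_DMSO replicate 1. Over all genes 11.9% fell with RG7388 and 11.3% with HDM201. NFKBIA, an inhibitor of NF-kB that is itself an NF-kB target, was at 114 ± 14.98 CPM in IR_DMSO, 18.2 ± 0.929 CPM in IR_RG7388 and 21.4 ± 1.61 CPM in IR_HDM201 (-2.64 ± 0.12, adjusted p = 3.63e-13, and -2.41 ± 0.12, adjusted p = 1.7e-12). The list's median was -0.69 and -0.78. After irradiation 3 of the 6 rose, with NFKBIA from 42.0 ± 2.35 CPM first by p, and 1 fell, RELA (-0.30 ± 0.13, adjusted p = 0.0480), a call lost without IR_DMSO replicate 1. The shares over all genes were 26.3% higher and 25.3% lower. Both RELA and IKBKB were called when Prolif_HDM201 replicate 3 was left out as well. In proliferating cells 0 of the 17 genes of both routes were called by edgeR with either compound. Few of all genes were called there, 1.20% higher and 0.342% lower with RG7388, and 0.545% and 0.154% with HDM201. At an unadjusted p under 0.05, for which no share over all genes is given, there was 1 of the 17 with RG7388 (IKBKB) and 0 with HDM201. Without both libraries that stood apart, edgeR called 1 of the 17 higher with RG7388 (IKBKB) and 2 with HDM201, RELA among them. Of all 18341 genes in that fit, 955 were called higher with RG7388 and 1589 with HDM201. With all libraries, the medians of both routes in proliferating cells ran from -0.08 to 0.0035.

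Damage and stress sensors are tied to NKG2D ligands, with ATM and ATR upstream of them after DNA damage and HSF1 acting on MICA and MICB through heat shock elements. Of 10 such genes, 2 rose with irradiation (ATM, 0.93 ± 0.26, adjusted p = 0.00636, and CHEK2) and 4 fell, E2F1 with the smallest p (-1.76 ± 0.11, adjusted p = 7.78e-12), beside 26.3% of all genes that rose and 25.3% that fell. The call of CHEK2 (0.33 ± 0.13, adjusted p = 0.0337) was lost without IR_DMSO replicate 1. HSF1 was among the 4 that fell with irradiation. Its call was also lost without that library, but it was called lower when Prolif_HDM201 replicate 3 was left out as well. With RG7388 in irradiated cells 6 fell and only HSF1 rose (0.43 ± 0.11, adjusted p = 0.00634), and with HDM201 5 fell and 0 rose, though without both libraries that stood apart HSF1 was called higher with HDM201 too. CHEK2, a checkpoint kinase gene, fell with the smallest p, by 1.24 with RG7388 and by 1.12 with HDM201, and the heat shock genes HSPA1A and HSPA1B were among those that fell. The median of the list was -0.60 and -0.34. Over all genes 10.9% rose and 11.9% fell with RG7388, and 9.96% and 11.3% with HDM201.

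Ligands can be cut from the surface by metalloproteases or held there by partners. Of 8 such genes, 4 rose with irradiation, ADAM17 with the smallest p (0.48 ± 0.11, adjusted p = 0.000768), and 2 fell, MMP14 with the smallest p (-1.22 ± 0.10, adjusted p = 6.2e-10), beside 26.3% and 25.3% of all genes. ADAM17, which sheds NKG2D ligands, fell from 36.4 ± 5.25 CPM in IR_DMSO to 24.4 ± 0.797 CPM in IR_RG7388 and 23.9 ± 1.33 CPM in IR_HDM201 and was the only gene of the list to fall with either compound (adjusted p = 0.000371 and 0.000287). TIMP3, an inhibitor of ADAM17, rose with both (0.38 ± 0.10, adjusted p = 0.00655, and 0.33 ± 0.10, adjusted p = 0.0181), and MMP14 rose with RG7388 (0.41 ± 0.10, adjusted p = 0.00442). The call of TIMP3 with HDM201 ended without IR_DMSO replicate 1. Over all genes 10.9% rose and 11.9% fell with RG7388, and 9.96% and 11.3% with HDM201. CMTM6, which holds PD-L1 at the surface, was at 126 ± 0.438 CPM in IR_DMSO, 111 ± 5.98 CPM in IR_RG7388 and 128 ± 18.7 CPM in IR_HDM201, with no call for the compounds.

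The remaining NKG2D ligand genes RAET1E, RAET1G and RAET1L were low, and RAET1G alone was tested. It rose with irradiation from 0.857 ± 0.141 to 2.82 ± 0.462 CPM (1.75 ± 0.29, adjusted p = 2.71e-05) and was at 1.96 ± 0.319 CPM in IR_RG7388 and 1.72 ± 0.240 CPM in IR_HDM201, with no call for the compounds. Among 9 tested ligands of other activating or adhesion receptors, irradiation raised 4 and lowered 2, beside 26.3% and 25.3% of all genes. ICAM1, the adhesion ligand of the NK integrin LFA-1, rose with the smallest p from 51.6 ± 2.34 to 200 ± 27.9 CPM, and BAG6, a ligand of an NK natural cytotoxicity receptor, fell (-0.41 ± 0.11, adjusted p = 0.00429), as did NCR3LG1 (-0.52 ± 0.21, adjusted p = 0.0400), whose call was lost without IR_DMSO replicate 1. With the compounds in irradiated cells 2 of the 9 fell, ICAM1 to 69.6 ± 2.95 CPM with RG7388 and 56.4 ± 3.60 CPM with HDM201, and CLEC2B, beside 11.9% and 11.3% of all genes. A single gene rose with each, beside 10.9% and 9.96% of all genes. These were PVR with RG7388 (0.45 ± 0.11, adjusted p = 0.00383) and CD58 with HDM201 (0.67 ± 0.22, adjusted p = 0.0333), and the call of CD58 was lost when IR_DMSO replicate 1 was left out. The falls numbered 3 with either compound without that library, and 3 with RG7388 and 4 with HDM201 without Prolif_HDM201 replicate 3 as well, where PVR was called higher with both. No share over all genes is given for these fits with libraries left out. In proliferating cells TNFSF9, the ligand of the costimulatory receptor 4-1BB, was the only one of the 9 called, higher with RG7388 (2.13, adjusted p = 0.00487) and with HDM201 (1.76, adjusted p = 0.0352). Over all genes 1.20% rose there with RG7388 and 0.545% with HDM201. Without both libraries that stood apart, PVR was called higher with both compounds as well, and NECTIN2 with HDM201. Of all 18341 genes in that fit, 955 were called higher with RG7388 and 1589 with HDM201.

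The other direction is held by ligands of NK inhibitory receptors, of which 5 of 8 were tested. HLA-E, the ligand of the inhibitory receptor NKG2A, was the only one to rise with irradiation, from 176 ± 4.01 to 394 ± 13.0 CPM (1.17 ± 0.10, adjusted p = 7.17e-10), and 2 fell, CDH2 with the smallest p (-2.83 ± 0.11, adjusted p = 8.58e-16). These counts stand beside 26.3% of all genes that rose and 25.3% that fell. With either compound in irradiated cells edgeR called 0 of these 5, with CDH2 alone at an unadjusted p under 0.05. Over all genes edgeR called 10.9% higher and 11.9% lower with RG7388, and 9.96% and 11.3% with HDM201. Without both libraries that stood apart CLEC2D was called lower with RG7388. HLA-E stood at 381 ± 11.5 CPM in IR_RG7388 and 358 ± 22.6 CPM in IR_HDM201. In the change in irradiated minus that in proliferating cells, HDM201 had HLA-E called lower and CDH2 higher. Over all genes 5.67% were lower and 2.97% higher in that difference. With RG7388 0 of the 5 were called in it.

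Of 18 other checkpoint and costimulatory ligands, 11 were tested, and 8 rose and 2 fell with irradiation. Over all genes 26.3% rose and 25.3% fell. TNFRSF14, the ligand of BTLA, rose with the smallest p (2.95 ± 0.24, adjusted p = 7.23e-10) and TNFSF4, the ligand of the costimulatory receptor OX40, fell with the smallest p (-0.74 ± 0.09, adjusted p = 2.15e-07). With either compound in irradiated cells 2 rose (TNFSF4 and VSIR) and 4 fell (TNFSF18, LGALS9, IDO1 and TNFRSF14), though TNFRSF14 with RG7388 (-0.61 ± 0.21, adjusted p = 0.0385) was not called without IR_DMSO replicate 1. The shares over all genes were 10.9% higher and 11.9% lower with RG7388, and 9.96% and 11.3% with HDM201. TNFSF4 rose with the smallest p, from 88.2 ± 3.83 CPM in IR_DMSO to 169 ± 4.21 CPM in IR_RG7388 and 177 ± 9.98 CPM in IR_HDM201 (0.94 ± 0.09, adjusted p = 3.3e-08, and 1.01 ± 0.09, adjusted p = 1.35e-08). TNFSF18, the ligand of GITR, fell with the smallest p (-2.24 ± 0.25, adjusted p = 5.18e-07, and -1.65 ± 0.25, adjusted p = 3e-05). In proliferating cells RG7388 raised 2 of the 11, VSIR with the smallest p (0.53 ± 0.12, adjusted p = 0.02), and lowered TNFSF18 (-1.18 ± 0.28, adjusted p = 0.0346). With HDM201 edgeR called 0 of the 11, and 2 (CD276 and VSIR) without both libraries that stood apart. In that fit 1589 of all 18341 genes were called higher with HDM201. With all libraries, 1.20% of all genes rose and 0.342% fell with RG7388 in proliferating cells, and 0.545% and 0.154% with HDM201. Like PDCD1LG2, TNFSF4 differed between the states with both compounds, by 0.77 ± 0.12 with RG7388 (adjusted p = 0.000155) and by 1.11 ± 0.12 with HDM201 (adjusted p = 1.56e-06). In the same list TNFRSF14 differed the other way with both (-1.30, adjusted p = 0.0199, and -1.66, adjusted p = 0.00293), as did LGALS9 (-1.62, adjusted p = 0.0358, and -2.06, adjusted p = 0.00693) and, with HDM201, TNFSF18 (-1.26, adjusted p = 0.0271). Over all genes this difference was called higher for 2.20% and lower for 5.27% with RG7388, and for 2.97% and 5.67% with HDM201. The NF-kB, interferon-gamma and damage lists each had 5 genes lower with RG7388 and 4 with HDM201, and 0 higher. Of the activating and adhesion ligands, ICAM1, CLEC2B and TNFSF9 were lower with both and 0 higher.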

How the data were processed

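Poly(A) RNA from 18 IMR90 libraries in 6 groups of 3 was sequenced. The authors aligned reads to hg38 with a STAR 2-pass procedure, filtered them with SAMtools, counted reads per gene with HTSeq and tested with DESeq2. The deposited count table holds raw counts per gene and library, and the deposited FPKM table was made by the authors with Cufflinks. The sources used here give no tool version, annotation release or strand setting.

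From the counts, 45 copies of pseudoautosomal genes were left out, genes were filtered by group with filterByExpr, scaled with TMM and fitted with the robust quasi-likelihood method of edgeR 4.0.16 in R 4.3.3, with 1 coefficient per group and 9 contrasts. P-values were adjusted by Benjamini-Hochberg over 18151 genes. The code was tested on simulated counts. Alternatives were DESeq2 1.42.0, its size factors, library totals, other filters, limma 3.58.1 on log2(FPKM + 1) or log2(FPKM + 0.1), fits to the compared groups only, a replicate block and leaving out libraries. List counts without the libraries that stood apart were added after the data were seen.

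The members and lists (NKG2D ligands, other NK activating or adhesion and inhibitory ligands, checkpoint and costimulatory ligands, shedding, interferon-gamma, NF-kB, damage and stress, cell type markers) were chosen with earlier results of these data known. All members were named, with the called gene of smallest p per list and direction, any single called gene, the 5 genes most correlated with each member among 12580 with a mean of at least 1 CPM, and context genes. Other genes named, IRF1 and those beside a small count, were chosen after their values were seen. A few items are not reported here, though list counts include all tested genes. Same-numbered libraries of different groups were not paired: 9 of 45 such pairs had deviations correlated above 0.1. Replicates differed by more than sampling noise, with a lowest chi-square of 3.79 per gene. Depth of 21609198 to 66647700 counts limits the precision for low genes. Locations and exon overlaps came from GENCODE 44 on hg38. Promoter windows were aligned globally in full (match 2, mismatch -1, gap opening -5, gap extension -0.5).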

Additional observations from a re-analysis of the deposited data

Results flagged for a closer look

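PDCD1LG2 was singled out because its response to each compound differed between irradiated and proliferating cells in a test of the difference itself, the interaction term of the edgeR fit. The difference, irradiated minus proliferating, was 0.84 on the log2 scale with RG7388 and 1.14 with HDM201. In irradiated cells all 6 libraries given a compound lay above the 3 given DMSO, and in proliferating cells the groups overlapped. Both tests share the irradiated and proliferating DMSO libraries. The length of treatment of proliferating cells is not given, so cell state and length of treatment cannot be told apart here. Groups of 3 libraries were not tested for single outlying values.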

How the results depend on the processing

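Of 1155 member changes under the alternatives, 1004 kept direction and call, 53 gained a call, 59 lost it and 39 changed sign, 0 of them called on either side. CD274 in irradiated cells gave -0.016 with RG7388 when neither outlying library was used, -0.013 with totals, -0.047 with FPKM + 0.1, -0.043 with FPKM + 1 (filtered or not) and -0.014 to 0.35 over leave-outs, and with HDM201 -0.081 with FPKM + 0.1 and -0.070 with FPKM + 1. By state with HDM201, MICA gave -0.12 without both libraries, -0.099 with totals, -0.068 with FPKM + 0.1, -0.064 with FPKM + 1 and -0.098 to 0.18 over leave-outs, ULBP2 -0.091 without both, -0.034 with totals and -0.021 to 0.21 over leave-outs, and ULBP3 -0.13 without both and -0.050 to 0.42 over leave-outs (RG7388, -0.0036 to 0.46). Against Prolif_DMSO, MICB with HDM201 gave -0.016 with a 1 CPM filter, -0.018 without both, -0.011 with the compared groups only and -0.059 to 0.048 over leave-outs, and with RG7388 0.0023 with totals, 0.027 with FPKM + 0.1 and 0.023 with FPKM + 1. In proliferating cells with HDM201, ULBP1 gave 0.067 without both, 0.0044 with the compared groups only and -0.041 to 0.068 over leave-outs, and PDCD1LG2 -0.12 to 0.023 over leave-outs. Members called (of 7) after irradiation were 3 at an adjusted p under 0.01 and in the compared groups only, and 3 to 6 over leave-outs. With RG7388 in irradiated cells they were 2 at 0.01, 2 with totals and 2 to 4 over leave-outs, and with HDM201 2 at 0.01, in the compared groups only, with totals and on the FPKM scales, and 2 to 5 over leave-outs. With RG7388 in proliferating cells they were 2 without both and in the compared groups only, and 0 at 0.01, with FPKM + 1, with no filter and in every leave-out. With HDM201 they were 5 without both, 1 with the DESeq2 Wald test, 1 with totals and 0 to 2 over leave-outs. By state they were, with RG7388, 2 without both, 2 with totals, 0 with FPKM + 0.1 and 1 to 2 over leave-outs, and with HDM201 3 without both, 2 with DESeq2 size factors, the DESeq2 Wald test, totals or no filter, and 1 to 3 over leave-outs. The cause was not tested. Highest to lowest group means were 2.10 for MICA, 2.97 for PDCD1LG2 and 2.99 for ULBP2 on the FPKM scale. With a replicate block, members called with RG7388 in proliferating cells were 0 (ULBP2 0.53, adjusted p = 0.0517), ULBP1 after irradiation was 0.45 (adjusted p = 0.0594) and MICA with HDM201 in irradiated cells was 0.31 (adjusted p = 0.0462), and 8 of 18 libraries correlated best with their own number. All genes called with HDM201 in proliferating cells numbered 127, against 2833 without both libraries, 1672 without Prolif_HDM201 replicate 3, 296 with DESeq2, 21 in the compared groups only, 61 to 79 with limma and 43 to 59 in the other leave-outs. With RG7388 they were 279, against 1436 without both libraries, 532 with DESeq2, 1081 in the compared groups only, 117 to 155 with limma and 94 to 134 in leave-outs. By state they were 1568 with HDM201, against 3321 without both libraries and 2943 without Prolif_HDM201 replicate 3, and 1356 with RG7388, against 2204 without both libraries and 2098 in the compared groups only. With totals, rises made up 15.1% (RG7388) and 15.7% (HDM201) of the calls by state, against 29.4% and 34.4%, and 67.5% of those with RG7388 in proliferating cells, against 77.8%.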
